A study of Mus musculus with 18 samples.

Results

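The transcription factor genes Tbx21, Eomes, Gata3, Rora, Zeb2, Tox, Tox2, Hif1a and Zbtb32, which take part in the choice and upkeep of helper T cell lineages, were followed in naive and tolerized CD4 T cells. They were chosen by name, as 9 of the 37991 genes in the count files, and all 9 were among the 17240 genes with enough counts to be tested. These genes and the gene lists described later were chosen with earlier results of these data known. Counts set beside the share of all tested genes therefore do not test for an excess. RNA-seq had been performed on CD4 T cells enriched by magnetic negative selection from the spleen of Tg4-H2u mice, a strain in which a transgenic TCR directs most CD4 T cells to a peptide of myelin basic protein, using male and female mice 6 to 12 weeks of age. Tolerized mice had received escalating subcutaneous doses of the high-affinity 4Y peptide every 3 to 4 days, whereas naive mice had received PBS on the same schedule. The resting groups N0 (naive) and T0 (tolerized) were given PBS as the last injection, NAg and TAg were given peptide Ag 2 h before the spleen was taken, and NPI and TPI were cells that spent 2 h in culture with PMA and calcium ionophore (PI), which bypass the TCR. Each group had 3 biological replicates, and p-values measure the spread between these. The resting cells had not been cultured, so in the PI groups the drugs and the time in culture cannot be told apart.

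Tbx21 encodes T-bet, which directs the Th1 program, and Eomes encodes its close T-box relative, best known in cytotoxic T cells and NK cells. GATA3 is needed for CD4 T cell development and directs the Th2 program, and RORα takes part in the Th17 program. ZEB2 is a zinc finger repressor that acts with T-bet in effector T cells, TOX and TOX2 are HMG-box proteins known from T cell development, follicular helper cells and T cells under lasting stimulation, HIF-1α is the oxygen-sensitive subunit of HIF-1 and drives glycolytic genes, and ZBTB32 (also named ROG or PLZP) is a zinc finger repressor that restrains T cell activation.

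The genes lie on 6 mouse chromosomes in the NCBIM37 (mm9) build. Tbx21 (ENSMUSG00000001444) is at chr11:96959385-96976645 on the minus strand, Eomes (ENSMUSG00000032446) at chr9:118387330-118395250 on the plus strand and Gata3 (ENSMUSG00000015619) at chr2:9778705-9811661 on the minus strand. Rora (ENSMUSG00000032238) is at chr9:68501593-69236053 on the plus strand, Zeb2 (ENSMUSG00000026872) at chr2:44839154-44972915 on the minus strand and Tox (ENSMUSG00000041272) at chr4:6613500-6918704 on the minus strand. Tox2 (ENSMUSG00000074607) is at chr2:163028861-163149906 on the plus strand, Hif1a (ENSMUSG00000021109) at chr12:75002362-75048517 on the plus strand and Zbtb32 (ENSMUSG00000006310) at chr7:31374700-31383928 on the minus strand. Of the 9 genes, 5 share exon bases with another annotated gene, by between 0.626% (Rora) and 5.6% (Hif1a, with the opposite-strand gene Gm15283) of their exon length, and none of the overlapping genes had more than 22 counts in any library. How the counting treated strand was not stated, so a small share of these reads is uncertain.

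RefSeq promoter windows of 300 bases, from 250 before to 50 after the start site, were at hand for 8 of the 9 genes (16 windows, from a table of build GRCm38.p6), and each was found once on the matching chromosome of NCBIM37. The 250 bases before the start site are shown, 5′ to 3′ on the gene's strand, for the 5 genes that were called higher in T0 than in N0. Their log2 fold changes ran from 0.35 (Hif1a) to 2.39 (Zbtb32). For Zeb2 and Zbtb32, which have several windows, the window shown was not chosen at the same end of the gene. The stretches shown are Tbx21 at chr11:96976646-96976895 (minus strand), Rora at chr9:68501343-68501592 (plus strand), Hif1a at chr12:75008604-75008853 (plus strand), the Zeb2 window nearest the gene's 3′ end of 4 windows at chr2:44965798-44966047 (minus strand), and the Zbtb32 window at the annotated 5′ end, of a pair, at chr7:31383929-31384178 (minus strand). Capitals mark matches on either strand to the motifs listed after the sequences.
Tbx21: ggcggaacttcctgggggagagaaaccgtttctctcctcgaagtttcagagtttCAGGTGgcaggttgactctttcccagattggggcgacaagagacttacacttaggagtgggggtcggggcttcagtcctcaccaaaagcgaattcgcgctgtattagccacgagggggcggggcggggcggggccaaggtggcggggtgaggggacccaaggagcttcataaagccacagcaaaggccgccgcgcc
Rora: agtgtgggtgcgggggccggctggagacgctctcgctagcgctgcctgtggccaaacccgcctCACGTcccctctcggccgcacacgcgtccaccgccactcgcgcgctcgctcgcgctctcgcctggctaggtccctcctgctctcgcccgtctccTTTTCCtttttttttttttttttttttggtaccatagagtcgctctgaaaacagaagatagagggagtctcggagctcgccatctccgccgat
Zeb2: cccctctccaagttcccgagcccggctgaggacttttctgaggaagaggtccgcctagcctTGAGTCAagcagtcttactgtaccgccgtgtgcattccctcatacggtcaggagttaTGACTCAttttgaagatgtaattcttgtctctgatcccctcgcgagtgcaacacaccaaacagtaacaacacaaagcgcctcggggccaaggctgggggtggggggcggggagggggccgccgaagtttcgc
Hif1a: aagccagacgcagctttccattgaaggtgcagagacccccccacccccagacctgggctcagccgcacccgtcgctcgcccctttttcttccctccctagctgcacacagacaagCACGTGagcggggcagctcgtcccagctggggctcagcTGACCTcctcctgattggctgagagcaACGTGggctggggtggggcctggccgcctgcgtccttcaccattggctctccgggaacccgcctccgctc
Zbtb32: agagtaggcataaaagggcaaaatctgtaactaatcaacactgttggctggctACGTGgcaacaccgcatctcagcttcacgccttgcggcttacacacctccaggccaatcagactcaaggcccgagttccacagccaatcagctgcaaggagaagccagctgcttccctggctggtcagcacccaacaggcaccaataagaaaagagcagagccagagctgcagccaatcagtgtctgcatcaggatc

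Each motif was searched on both strands. For AP-1, the factor formed by FOS and JUN proteins, the letters were TGANTCA. For NFAT, which calcium signals switch on, they were GGAAAA, and GATA factors were searched as AGATAA. A variant of the GATA site, searched apart, was TGATAA. ZEB proteins bind an E-box spelled CACCTG, T-box factors a site of which GGTGTGA is the core, ROR receptors a site ending in AGGTCA, and HIF-1 the hypoxia response element ACGTG. The printed Zeb2 window held both AP-1 matches found in the 16 windows, with first bases at -189 and -132 counted from the start site. AP-1 letters were thus in 1 of the 16 windows, and 7.81% of 32851 promoters of this length held that motif. The Zeb2 window nearest the annotated 5′ end, which is not printed, held no match to any of the motifs. In Hif1a, ACGTG matched at -135 and -134, as the overlapping arms of one palindrome, and at -70, and AGGTCA matched at -97. Those letters were present in 19.6% and 16.3% of all promoters. Rora held ACGTG at -187 and GGAAAA at -93 (23.4% of all promoters), Zbtb32 held ACGTG at -197, and Tbx21 held the E-box CACCTG at -196 (20.2% of all promoters). The NFAT letters occurred in 5 of the 16 windows, those of Rora, Zeb2 and Tox2, and overlapping windows of Zeb2 and of Tox2 each shared a single place. Both GATA words, found in 11.2% and 9.05% of all promoters, and the T-box core, found in 3.98%, occurred in 0 of them. A match describes the letters of these windows and is not a site of binding.

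Total counts were 10758571 to 13559974 per library in N0, NAg, T0 and TAg and 14895843 to 24119489 in NPI and TPI. The summed normalized count of 7 T cell markers (among them Cd3e and Cd4), all 7 detected, differed between groups. It was 27341 to 28657 in N0, 17302 to 18763 in NAg, 28004 to 31480 in NPI, 23501 to 27454 in T0, 20278 to 22754 in TAg and 32675 to 36101 in TPI. Neutrophil markers (9 genes) summed to between 59.5 and 310.1 in the naive groups, 1688 and 3593 in T0 and TAg and 476 and 793 in TPI, and Ngp, Ltf and Camp were at 0 in NPI. Macrophage and monocyte markers (11 genes, Marco at 0 in N0) summed to between 618 and 850 in N0, 639 and 2258 in NAg, 355 and 464 in NPI, 1373 and 1747 in T0, 1027 and 1459 in TAg and 651 and 767 in TPI. This sum does not follow most of its markers. Their median log2 fold change was -0.41 in T0 against N0 and -3.16 in TAg against NAg. NK cell markers (6 genes, all detected in each group) summed to between 557 and 1240.2 in N0, 980 and 2245 in NAg, 778 and 1389 in NPI, 1066 and 1271 in T0, 1198 and 1651 in TAg and 456 and 667 in TPI. CD8 T cell markers (2 genes) summed to between 210 and 260 in N0, 84 and 180 in NAg, 170 and 197 in NPI, 82 and 126 in T0, 51 and 106 in TAg and 53 and 70 in TPI. Y-linked genes were high in 0 of 6 N0 and NAg libraries, in 2 of 3 T0, in 1 of 3 TAg and in all 6 PI libraries, so the sex of the mice cannot be told apart from PI treatment within naive cells. Sex was also unbalanced between T0 and N0, between TAg and NAg, and between TPI and the other tolerized groups. N0 replicate 1 stood apart by B cell markers, which summed to 1458 there and to 257 and 286 in the other N0 libraries, and it had the highest NK sum of that group. It was not the only such library. T0 replicate 1 had sums of 2167 for B cell markers (762 and 406 in the other T0 libraries) and 1801 for erythroid markers (231 and 248). Erythroid markers summed to 1086 in TAg replicate 3 (270 and 97 in the others). Macrophage and monocyte markers summed to 2258 in NAg replicate 1 (741 and 639 in the others). In these bulk samples, fewer cells of a type and less RNA per cell cannot be told apart.

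Per kilobase of exon, the scale on which genes may be compared, Hif1a had the highest mean level of the 9 in every group. Its normalized count per kb was 294 ± 21.6 (SD, n = 3) in N0, 375 ± 64.3 in T0, 1051 ± 63.7 in NPI, 2429 ± 121 in TAg, 3040 ± 418 in TPI and 3083 ± 294 in NAg. Gata3 came next at rest, at 259 ± 5.84 per kb in N0 and 256 ± 12.4 in T0, followed by Tox at 177 ± 7.39 and 181 ± 20.2. The order changed with stimulation. Tbx21 had rank 4 at 45.8 ± 18.5 per kb in N0 and 158 ± 39.5 in T0, and rank 2 in all 4 stimulated groups, reaching 2185 ± 188 in TAg, while in NPI its 512 ± 91.6 lay beside 508 ± 22.2 for Gata3. Zbtb32 was lowest in N0 at 6.92 ± 3.41 per kb and had rank 4 in TPI at 410 ± 35.7, and Eomes stayed between 21.3 and 69.2 per kb in all groups. Over the 6 groups, the highest mean normalized count exceeded the lowest by 59.2-fold for Zbtb32, 47.7-fold for Tbx21, 19.9-fold for Zeb2, 17.1-fold for Tox2, 12.9-fold for Rora, 10.5-fold for Hif1a, 3.24-fold for Eomes, 3.22-fold for Gata3 and 2.1-fold for Tox.

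**Figure D1:**
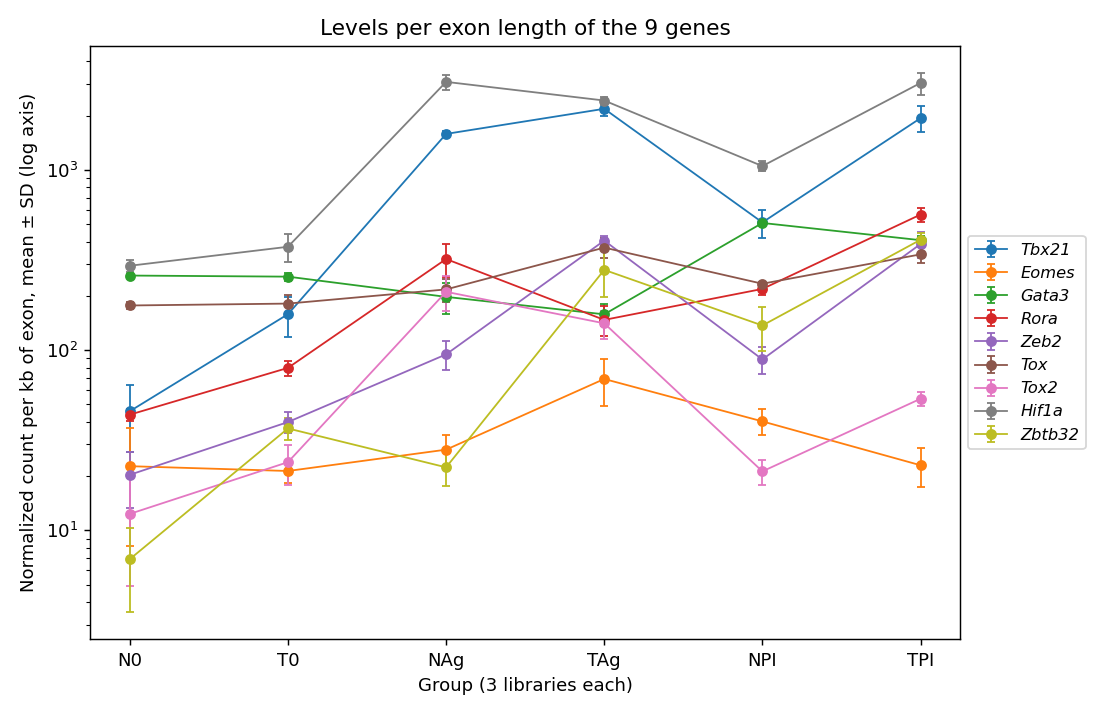
Mean normalized count per kilobase of exon (log axis, bars are SD over 3 libraries) of the 9 genes in the 6 groups. Hif1a is at the top throughout, Tbx21 climbs from rank 4 at rest to rank 2 after Ag or PI, and Eomes stays between 21.3 and 69.2.

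The level of Tbx21, the Th1 master regulator, was lowest at rest and separated naive from tolerized cells there. Its normalized count in replicates 1, 2 and 3 was 166, 80.4 and 95.2 in N0 and 320.2, 356 and 505 in T0. After Ag it was 3806, 4080.0 and 3945 in NAg and 5673, 4898 and 5741 in TAg, and after PI it was 1108, 1533 and 1177 in NPI and 5731, 4333 and 4402 in TPI. TAg and TPI replicates overlapped, whereas each other neighbouring pair in the order TPI, NAg, NPI, T0, N0 was separate. NPI was the stimulated group with the lowest Tbx21.

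Eomes was a low-count gene without a clear order except at the top. It had 162, 48.0 and 72.4 normalized counts in N0, 84.9, 102 and 78.6 in T0 and 128, 88.1 and 133 in NAg. TAg libraries held 282, 207 and 373, NPI libraries 143, 197 and 162, and TPI libraries 69.5, 102 and 115. Every TAg library lay above all others, every NPI library lay above those of NAg, TPI and T0, and N0 replicate 1 reached into the range of NPI. NAg, TPI, N0 and T0 overlapped. The N0 spread came mostly from replicate 1, which had the highest NK, B cell and dendritic cell marker sums of its group. The cause of its high Eomes count was not tested.

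Gata3, the Th2 regulator, was the one gene of the 9 with its lowest levels after Ag. It had 1005, 1041 and 1049 normalized counts in N0 and 968, 1018 and 1067 in T0, which overlapped. After Ag these were 964, 712 and 682 in NAg and 719, 545 and 622 in TAg, again overlapping, and after PI they were 2101, 1927 and 2035 in NPI and 1714, 1605 and 1547 in TPI. Every PI library was above every resting library, and NPI was above TPI.

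Rora, the Th17-associated nuclear receptor, gave a different order of groups for each stimulus. Its normalized counts were 523, 590 and 610 in N0 and 1058, 1135 and 940 in T0. NAg libraries held 3331, 5063 and 4196 and TAg libraries 1506, 2092 and 2185, so the naive cells were higher after Ag. NPI libraries held 2632, 3066 and 2894 and TPI libraries 6673, 7528 and 8018, so the tolerized cells were higher after PI. No neighbouring groups in the order TPI, NAg, NPI, TAg, T0, N0 overlapped.

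Zeb2, which encodes the repressor that works beside T-bet, fell into 4 separate levels. N0 replicates had 429, 290.2 and 218 normalized counts and T0 replicates 708, 571 and 560.1. The naive stimulated groups overlapped at 1559, 1658 and 1150.4 in NAg and 1179, 1618 and 1297 in NPI. The tolerized stimulated groups overlapped at 6094, 6678 and 5922 in TAg and 7059, 5528 and 5301 in TPI, far above the naive ones.

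Tox and Tox2, the HMG-box pair, behaved unlike each other. Tox had 1358, 1396 and 1285 normalized counts in N0, 1275, 1556 and 1306 in T0, 1928, 1493 and 1539 in NAg and 1807, 1720 and 1806 in NPI, and neighbours among these 4 groups overlapped. Only its tolerized stimulated groups stood above, with 2412, 3109 and 2941 in TAg and 2909, 2462 and 2391 in TPI. Tox2 was instead highest after Ag in naive cells, with 627, 898 and 626 in NAg, then 423, 577 and 437 in TAg and 193, 165 and 190.2 in TPI, 3 groups that did not overlap. It was low in T0 (73.4, 104 and 66.2), NPI (60.3, 82.5 and 73.8) and N0 (69.3, 19.8 and 36.7), where neighbours overlapped.

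Hif1a had the highest counts per length of the set and rose in all stimulated groups. Resting libraries held 1827, 1588 and 1785 in N0 and 1948, 2036 and 2644 in T0. NAg libraries held 18774, 19533 and 16222, TAg libraries 13524, 14913 and 14524, and TPI libraries 20625, 17329 and 15809. NPI was far lower at 5780.3, 6514 and 6288. NAg and TPI overlapped, and the other neighbours in the order TPI, TAg, NPI, T0, N0 did not.

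Zbtb32, the repressor of T cell activation, was higher in the tolerized group than in the naive group in each state. Its normalized counts were 22.8, 7.31 and 18.8 in N0 and 95.5, 73.3 and 91.1 in T0. After Ag they were 64.7, 50.5 and 42.9 in NAg and 712, 446 and 815 in TAg, and after PI they were 257, 423 and 289 in NPI and 876, 979 and 1042 in TPI. All 6 groups were separate, and unstimulated T0 lay above Ag-stimulated NAg.

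**Figure D2:**
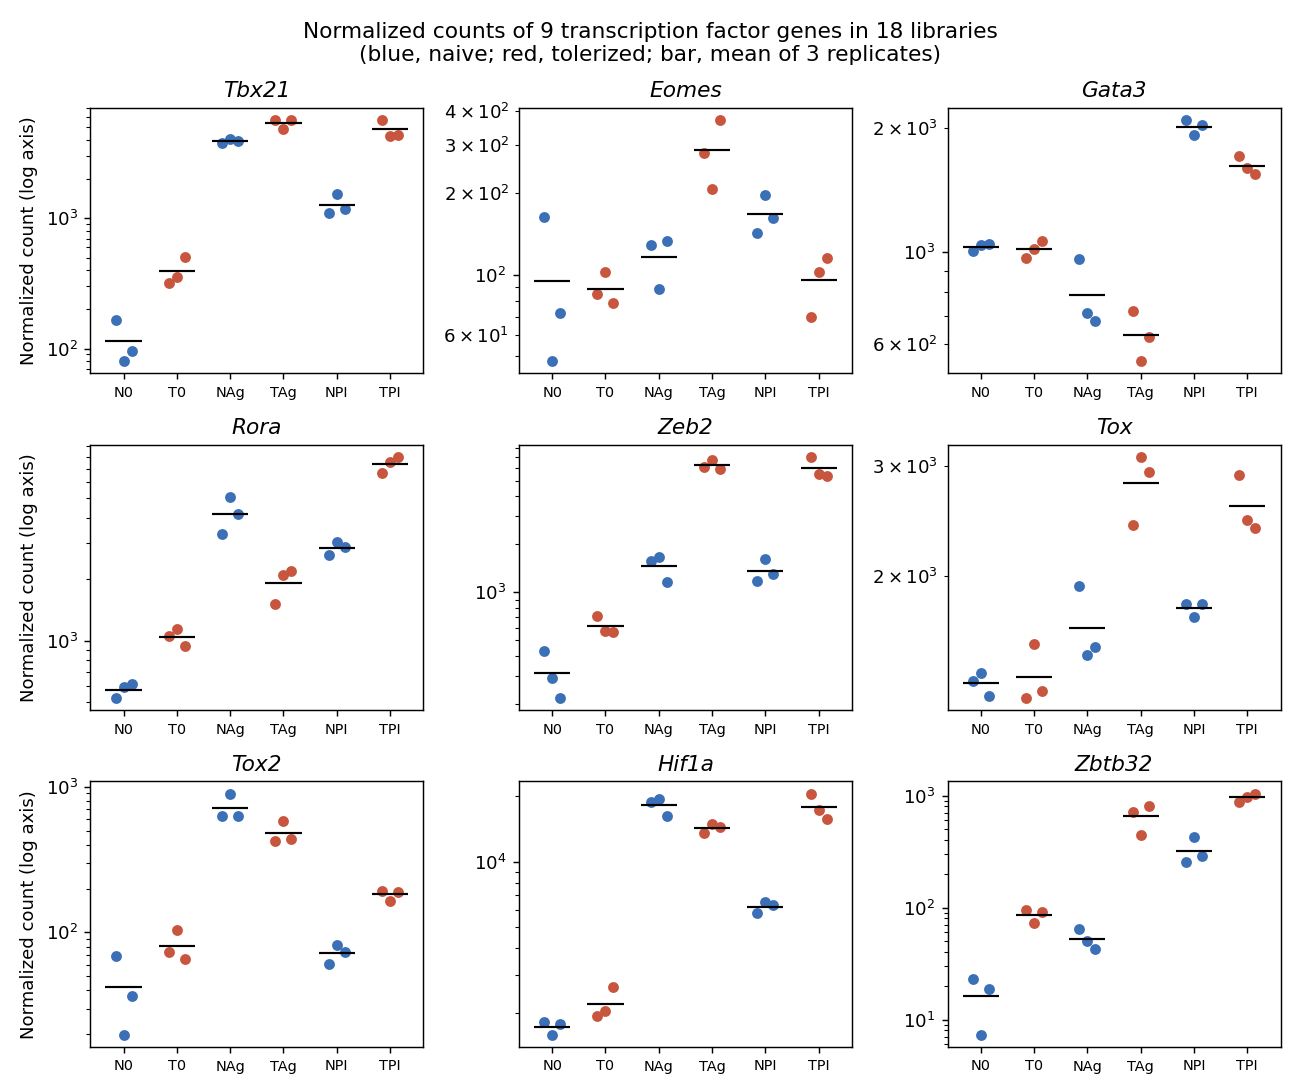
Normalized counts (log axis) of the 9 genes in each of 18 libraries, with blue points for naive cells, red points for tolerized cells and a bar at the mean of 3 replicates. The 3 TAg and 3 TPI libraries of Zeb2 sit between 5301 and 7059, above all naive libraries, and Zbtb32 is higher in tolerized than in naive cells in each state.

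Tolerized and naive cells were compared at rest to ask which of these genes had a changed baseline. Tbx21, Rora, Zeb2, Hif1a and Zbtb32 were higher in T0 than in N0 and none was lower, 5 of 9 genes at an adjusted p under 0.05 in edgeR's quasi-likelihood test, against 20.4% of all tested genes in either direction and 8.42% higher. Their median log2 fold change was 0.86, beside -0.08 over all tested genes. The log2 fold change was 2.39 ± 0.39 (SE; adjusted p = 0.0007) for Zbtb32 and 1.78 ± 0.26 (adjusted p = 0.000331) for Tbx21, and these were the only members that also passed the study's limits of 2-fold and an average above 50, which 3.25% of all tested genes passed. Zeb2 (0.97 ± 0.23, adjusted p = 0.00924), Rora (0.86 ± 0.16, adjusted p = 0.0014) and Hif1a (0.35 ± 0.11, adjusted p = 0.029) differed less. Gata3 (-0.02 ± 0.10), Tox (0.04 ± 0.11) and Eomes (-0.09 ± 0.37) did not pass, and neither did Tox2 (0.95 ± 0.34, adjusted p = 0.0622). Without N0 replicate 1, Tox2 had a log2 fold change of 1.51 (adjusted p = 0.00247). Hif1a no longer passed without N0 replicate 2 (adjusted p = 0.132), N0 replicate 3 (0.0583) or T0 replicate 3 (0.165). Sex was not balanced between these groups, and with the Y-linked level as a covariate Zeb2 had 0.96 and did not pass (adjusted p = 0.0505). All 9 neutrophil markers were higher in T0, and their part in these differences was not tested. Of the 11 macrophage markers 1 was higher and 1 lower. In a fit with macrophage and erythroid marker scores, Tbx21 (1.79, adjusted p = 0.0151), Rora (1.03, adjusted p = 0.0214) and Zbtb32 (1.76, adjusted p = 0.0268) passed. Zeb2 (0.86 ± 0.33, adjusted p = 0.191) and Hif1a (0.34 ± 0.15, adjusted p = 0.216) did not pass there, with estimates that moved little and wider SEs. The macrophage sum did not overlap between N0 (618 to 850) and T0 (1373 to 1747). This fit therefore cannot fully separate the scores from cell state, and the part of macrophages and erythroid cells was not tested.

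After Ag, the differences between cell states ran both ways. Zbtb32, Zeb2, Eomes and Tox were higher in TAg than in NAg, and Rora, Hif1a and Gata3 were lower, 7 of 9 genes against 39.4% of all tested genes (20.9% higher and 18.5% lower), with a median log2 fold change of 0.46 beside 0.01. Of these, 4 also passed the limits of 2-fold and an average above 50, which 5.66% of all tested genes passed. Zbtb32 differed most, by a log2 fold change of 3.65 ± 0.29 (SE; adjusted p = 2.21e-07 in edgeR), or 12.5-fold, followed by Zeb2 at 2.1 ± 0.21 (adjusted p = 4.32e-06). Eomes was higher by 1.30 ± 0.35 (adjusted p = 0.00903) and Tox by 0.77 ± 0.11 (adjusted p = 7.24e-06). Rora had a log2 fold change of -1.12 ± 0.15 (adjusted p = 2.9e-05), the opposite sign to its difference at rest. The differences of Hif1a (-0.34 ± 0.11, adjusted p = 0.0146) and Gata3 (-0.32 ± 0.11, adjusted p = 0.0201) were small. Gata3 lost its call without NAg replicate 1 (-0.14, adjusted p = 0.252), TAg replicate 2 (0.12) or TAg replicate 3 (0.057), and Hif1a lost it without NAg replicate 2 (0.0716) or TAg replicate 1 (0.0606). With the Y-linked level as a covariate, neither Gata3 (-0.28, adjusted p = 0.0669) nor Hif1a (-0.26, adjusted p = 0.067) passed. Tbx21 did not pass at 0.46 ± 0.20 (adjusted p = 0.0823) and Tox2 did not at -0.58 ± 0.24 (adjusted p = 0.0693), although the replicates of neither overlapped, and Tox2 passed without TAg replicate 2 (-0.74, adjusted p = 0.0487). All 9 neutrophil markers were higher and 7 of 11 macrophage markers lower in TAg than in NAg, and the part of the neutrophil markers was not tested. With macrophage and erythroid scores as covariates, no call among the 9 genes changed in this comparison. The macrophage sum averaged 1213 in NAg and 1197 in TAg, so it did not carry the fall of most of its markers. This fit therefore could not test the part of that fall.

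After PI, which acts below the TCR, 7 of the 9 genes were higher in TPI than in NPI and Gata3 was lower, against 37.9% of all tested genes (18.2% higher and 19.7% lower), with a median log2 fold change of 1.37 beside -0.04. Zeb2 (2.13 ± 0.21, adjusted p = 3.03e-06), Tbx21 (1.92 ± 0.21, adjusted p = 6.24e-06), Zbtb32 (1.58 ± 0.23, adjusted p = 7.11e-05), Hif1a (1.53 ± 0.11, adjusted p = 7.7e-10), Rora (1.37 ± 0.15, adjusted p = 3.11e-06) and Tox2 (1.34 ± 0.29, adjusted p = 0.00182) were each at least 2-fold higher by edgeR. Tox was higher by 0.54 ± 0.11 (adjusted p = 0.000301). Gata3 was lower by a log2 fold change of -0.32 ± 0.10 (adjusted p = 0.0145), a call that was lost without NPI replicate 1 (adjusted p = 0.0585) or TPI replicate 3 (0.064). Eomes did not pass at -0.81 ± 0.36 (adjusted p = 0.0938), with replicates that did not overlap, but it passed with DESeq2 (-0.79, adjusted p = 0.0337) and when only NPI and TPI were fitted (-0.78, adjusted p = 0.00458). NK cells, which carry Tbx21, Eomes and Zeb2, had their lowest marker sums in TPI, and with the NK marker score as a covariate the differences were 2.03 for Tbx21 (adjusted p = 5.89e-05), 2.22 for Zeb2 (adjusted p = 3.66e-05) and -0.24 for Eomes (adjusted p = 0.553). The NK score had a correlation of -0.563 with membership of the PI groups, and the Y-linked level one of 0.725. In contrasts of a PI group with rest or Ag, and in the difference of PI responses, fits with these covariates cannot fully separate them from PI. Of the 9 neutrophil markers 8 were higher in TPI than in NPI, and of the 2 CD8 T cell markers 2 were lower. The part of either list was not tested. With macrophage and erythroid scores the Zbtb32 difference was 0.99 (adjusted p = 0.0211) and the Eomes difference -1.36 (adjusted p = 0.0423).

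**Figure D3:**
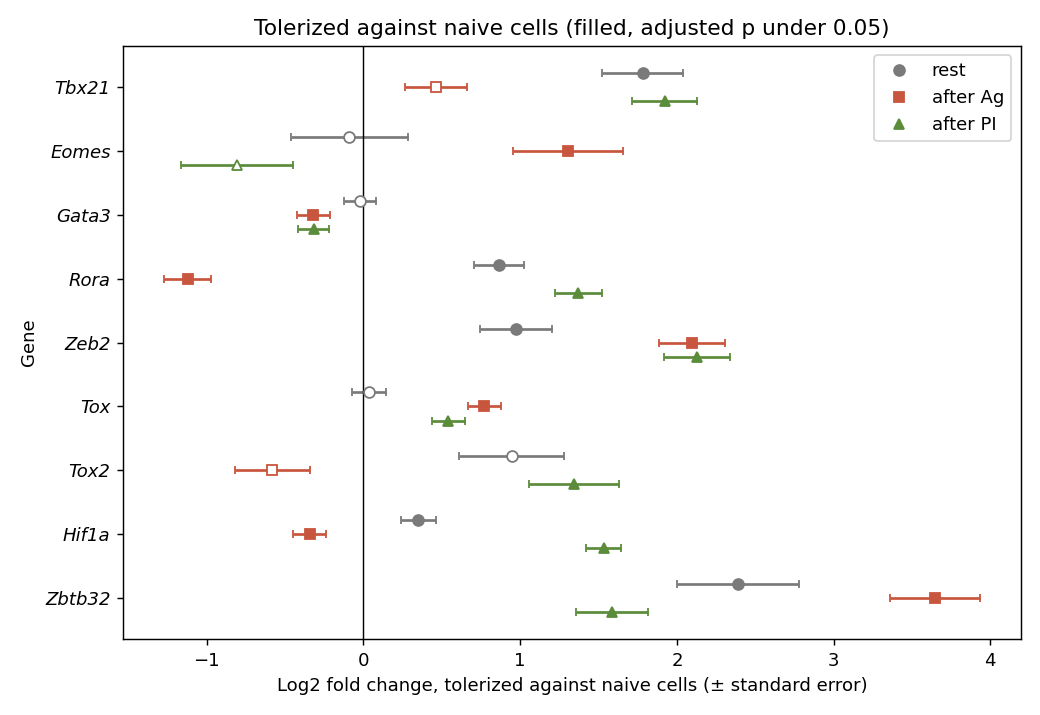
Log2 fold change of tolerized against naive cells with its standard error, for each gene at rest (circles), after Ag (squares) and after PI (triangles), filled where the adjusted p was under 0.05. Zbtb32 and Zeb2 are to the right of 0 in all 3 states, and Rora is at 0.86 at rest, -1.12 after Ag and 1.37 after PI.

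The response of naive cells to Ag was large for the Th1 regulator and for Hif1a. In NAg against N0, 7 of 9 genes were higher and Gata3 was lower, against 65.5% of all tested genes (32.1% higher and 33.4% lower). Tbx21 rose by 5.11 ± 0.26 on the log2 scale (SE; adjusted p = 2.45e-10 in edgeR), Tox2 by 4.08 ± 0.30 (adjusted p = 9.05e-09), Hif1a by 3.39 ± 0.12 (adjusted p = 1.31e-16), Rora by 2.87 ± 0.16 (adjusted p = 1.57e-10), Zeb2 by 2.22 ± 0.23 (adjusted p = 8.47e-07) and Zbtb32 by 1.67 ± 0.43 (adjusted p = 0.00345). Gata3 changed by -0.39 ± 0.10 (adjusted p = 0.002) and Tox by 0.30 ± 0.11 (adjusted p = 0.0192), and Tox lost its call without any one of the N0 replicates (adjusted p = 0.0862, 0.0648 and 0.14) or without NAg replicate 1 (0.149). Eomes had a log2 fold change of 0.30 ± 0.37 and did not pass, but without N0 replicate 1 it was 0.90 (adjusted p = 0.0144).

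In tolerized cells all 9 genes responded to Ag, 8 of them upward, against 59.8% of all tested genes (29.9% higher and 29.8% lower). Tbx21 rose by 3.79 ± 0.23 on the log2 scale (adjusted p = 2.65e-09), Zeb2 by 3.34 ± 0.22 (adjusted p = 9.92e-09), Zbtb32 by 2.93 ± 0.26 (adjusted p = 1.19e-07), Hif1a by 2.70 ± 0.12 (adjusted p = 6.87e-15) and Tox2 by 2.55 ± 0.27 (adjusted p = 9.39e-07). Smaller rises were found for Eomes (1.70 ± 0.35), Tox (1.03 ± 0.11) and Rora (0.88 ± 0.15), and Gata3 fell by 0.69 ± 0.11. Whether the response itself differed between cell states was tested as the difference of the log2 fold changes, tolerized minus naive, which passed for 6 of 9 genes against 21.7% of all tested genes (14.6% positive and 7.09% negative). It was negative for Rora (-1.99 ± 0.22, adjusted p = 1.13e-05), Tox2 (-1.53 ± 0.41, adjusted p = 0.0158), Tbx21 (-1.32 ± 0.32, adjusted p = 0.0104) and Hif1a (-0.69 ± 0.15, adjusted p = 0.0024). It was positive for Zeb2 (1.13 ± 0.31, adjusted p = 0.0186) and Tox (0.74 ± 0.15, adjusted p = 0.00116). Tbx21 thus started higher in tolerized cells, rose by a smaller factor and after Ag showed a difference that did not pass. Eomes (1.40 ± 0.51, adjusted p = 0.0718), Zbtb32 (1.26 ± 0.54, adjusted p = 0.124) and Gata3 (-0.30 ± 0.15, adjusted p = 0.166) did not pass. The Tox2 call was lost without T0 replicate 2 (adjusted p = 0.0542), Zbtb32 passed without TAg replicate 2 (0.027), and Eomes passed without N0 replicate 2 (0.0139).

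PI raised 7 of 9 genes in naive cells, against 61.4% of all tested genes (28.6% higher and 32.7% lower), and 8 of 9 in tolerized cells, against 68.3% (32.0% higher and 36.3% lower). In NPI against N0 the log2 fold changes were 4.28 ± 0.35 for Zbtb32, 3.47 ± 0.25 for Tbx21, 2.32 ± 0.16 for Rora, 2.12 ± 0.23 for Zeb2, 1.84 ± 0.11 for Hif1a, 0.97 ± 0.10 for Gata3 and 0.40 ± 0.11 for Tox. Eomes (0.82 ± 0.36, adjusted p = 0.0639) and Tox2 (0.77 ± 0.34, adjusted p = 0.066) did not pass, but each did without N0 replicate 1 (adjusted p = 0.000423 and 0.00207 by edgeR). In TPI against T0 they were 3.62 ± 0.23 for Tbx21, 3.48 ± 0.26 for Zbtb32, 3.28 ± 0.22 for Zeb2, 3.02 ± 0.12 for Hif1a, 2.83 ± 0.16 for Rora, 1.17 ± 0.28 for Tox2, 0.91 ± 0.11 for Tox and 0.67 ± 0.10 for Gata3, while Eomes had 0.10 ± 0.37 and did not pass. With the NK score as a covariate Eomes had 0.92 (adjusted p = 0.019) in TPI against T0 and 0.75 (adjusted p = 0.0113) in NPI against N0. The difference of the PI responses passed for 3 of 9 genes, all positive, against 20.2% of all tested genes (12.7% positive and 7.52% negative). These were Hif1a (1.18 ± 0.16, adjusted p = 1.11e-05), Zeb2 (1.16 ± 0.31, adjusted p = 0.0172) and Tox (0.51 ± 0.15, adjusted p = 0.0195), and Tox lost its call without T0 replicate 1 (adjusted p = 0.0512) or TPI replicate 1 (0.0582). Zeb2 and Tox therefore had a larger rise in tolerized cells with both stimuli, while Hif1a had a smaller rise with Ag and a larger one with PI. Rora did not pass (0.51 ± 0.22, adjusted p = 0.12), but it did with DESeq2 (0.0463), with the Y-linked level as a covariate (0.0372) and when only the 4 groups compared were fitted (0.0309). The difference did not pass for Tox2 (0.40 ± 0.45), Tbx21 (0.14 ± 0.33), Gata3 (-0.30 ± 0.14), Zbtb32 (-0.80 ± 0.47) or Eomes (-0.71 ± 0.52), although Eomes passed without N0 replicate 1 (-1.34, adjusted p = 0.0195). Responses to Ag and to PI share their resting controls and are given side by side.

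**Figure D4:**
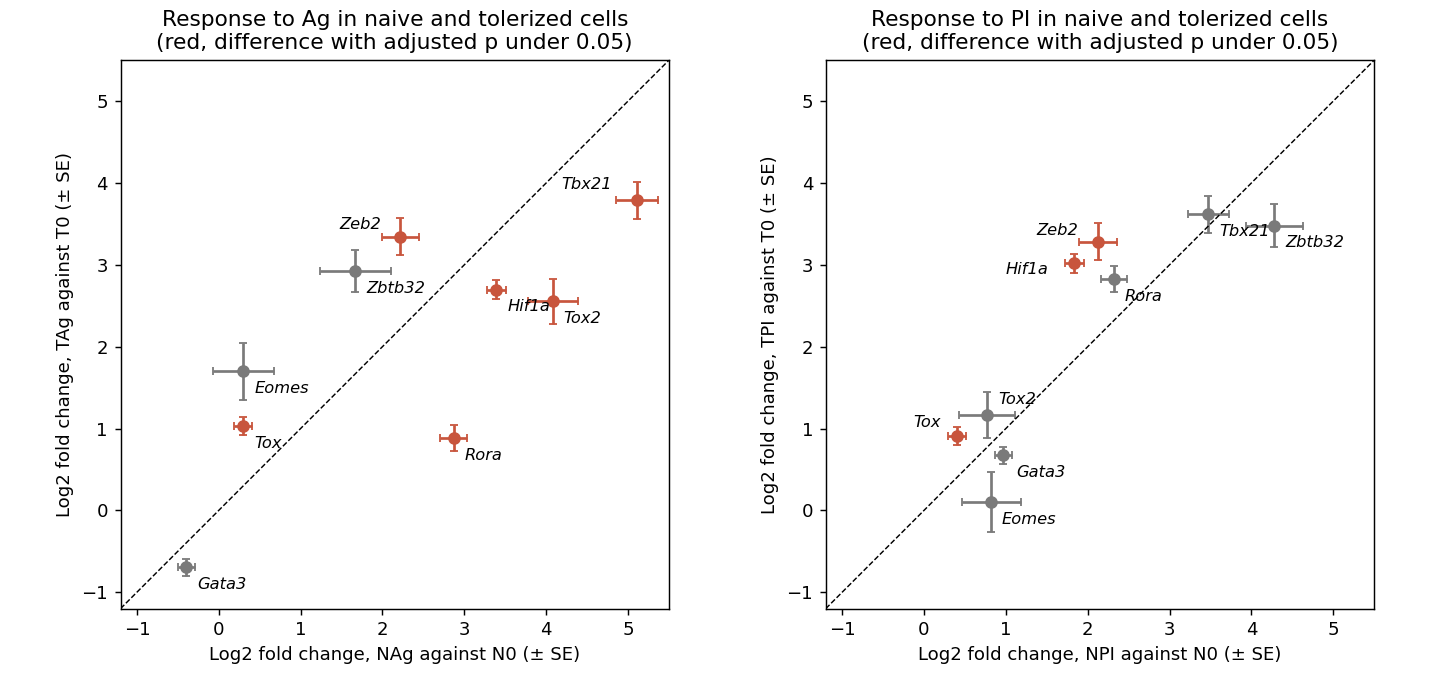
Log2 fold change over resting cells in naive (horizontal) and tolerized (vertical) cells after Ag (left) and PI (right), with standard errors and the line of equal response. Red marks the genes whose responses differed with an adjusted p under 0.05, with Rora, Tox2, Tbx21 and Hif1a below the line and Zeb2 and Tox above it for Ag, and Hif1a, Zeb2 and Tox above it for PI.

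The stimuli were also set against each other within each cell state. In naive cells 6 of 9 genes differed between NPI and NAg, against 64.4% of all tested genes (33.5% higher and 31.0% lower). Gata3 (1.36 ± 0.10, adjusted p = 4.57e-11) and Zbtb32 (2.61 ± 0.29, adjusted p = 1.42e-06) were higher after PI, and Tox2 (-3.31 ± 0.28, adjusted p = 5.36e-08), Tbx21 (-1.63 ± 0.21, adjusted p = 7.57e-06), Hif1a (-1.55 ± 0.11, adjusted p = 3.35e-11) and Rora (-0.55 ± 0.15, adjusted p = 0.00416) were lower. In tolerized cells 6 of 9 differed between TPI and TAg, against 63.8% (31.5% higher and 32.3% lower). Gata3 (1.37 ± 0.10, adjusted p = 5.89e-11), Rora (1.94 ± 0.15, adjusted p = 1.32e-08), Hif1a (0.32 ± 0.11, adjusted p = 0.0123) and Zbtb32 (0.55 ± 0.22, adjusted p = 0.0411) were higher after PI, and Eomes (-1.59 ± 0.35, adjusted p = 0.00112) and Tox2 (-1.38 ± 0.25, adjusted p = 0.000208) were lower. Gata3, Zbtb32 and Tox2 thus differed between the stimuli in the same direction in both cell states. The Zbtb32 call was lost without TAg replicate 1 (adjusted p = 0.0576), TAg replicate 2 (0.146), TPI replicate 2 (0.0845) or TPI replicate 3 (0.111), and the Hif1a call without TPI replicate 1 (0.0749). With the NK score as a covariate, Eomes (-0.60, adjusted p = 0.144) and Hif1a (0.21, adjusted p = 0.28) did not pass in tolerized cells. Eomes in naive cells had 0.52 ± 0.36 (adjusted p = 0.223) and passed with the NK score (1.13, adjusted p = 0.00192) or when only NPI and NAg were fitted (0.45, adjusted p = 0.0389). Zeb2 and Tox did not pass in either state, with log2 differences between -0.12 and 0.11, and Tbx21 did not in tolerized cells (-0.17 ± 0.20).

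The genes that work with these factors were followed as lists. The share of all tested genes that passed was 20.4% at rest, 39.4% after Ag and 37.9% after PI between cell states, and counts of list members stand beside these. Of 15 Th1 genes, 8 were higher and 0 lower in T0 than in N0 (median log2 fold change 0.90, against -0.08 over all tested genes), led by the IL-12 receptor subunit gene Il12rb1 (1.89 ± 0.16) and the chemokine receptor gene Cxcr3 (2.16 ± 0.32). After Ag 9 were higher and 1 lower in TAg than in NAg, among them the homeobox gene Hlx (2.09 ± 0.41) and Cxcr3 (1.64 ± 0.31), and after PI 6 were higher and 1 lower in TPI than in NPI, led by Stat4 (1.10 ± 0.12) and Cxcr3 (2.32 ± 0.29). Of 9 Th2 genes with enough counts of 10, 0 passed at rest by edgeR's adjusted test, 1 had an unadjusted p under 0.05 and 1 passed by DESeq2. Between tolerized and naive cells after Ag 1 of them was higher and 2 were lower (median -0.39), and after PI 2 were higher and 1 was lower (median -0.30). In that list the IL-4 receptor gene Il4ra (-0.39 ± 0.07) and Il13, which encodes a Th2 cytokine (-2.91 ± 0.83), were lower in TAg than in NAg, and the signal transducer gene Stat6 was higher in TPI than in NPI (0.82 ± 0.08). Of 10 Th17 genes, 2 were higher in T0 and 0 lower (median 0.93), among them the aryl hydrocarbon receptor gene Ahr (2.50 ± 0.23). In this list 1 gene was higher and 2 were lower in TAg than in NAg (median -0.35), and 4 were higher and 0 lower in TPI than in NPI (median 0.58). Ahr was higher in TAg (1.72 ± 0.19) and TPI (2.66 ± 0.19). The Th17 signal transducer gene Stat3 was lower in TAg (-0.67 ± 0.09) and higher in TPI (1.14 ± 0.09), the signs that Rora showed. The lists are of unlike size and are described by counts.

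Genes around HIF-1 changed in both directions. The 12 target genes included 8 higher and 3 lower in NAg than in N0 (65.5% of all tested genes passed there, median log2 fold change 1.06, beside 0 over all tested genes) and 9 higher and 3 lower in TAg than in T0 (59.8% of all tested genes, median 1.02, beside -0.05). The lactate dehydrogenase gene Ldha rose by 2.28 ± 0.09 and 2.32 ± 0.09 on the log2 scale in these comparisons. Pdk1, a kinase gene that holds pyruvate back from the mitochondria, changed by -3.51 ± 0.13 in NAg against N0 while Hif1a rose. In the PI groups the growth factor gene Vegfa rose by 5.62 ± 0.22 in naive and 4.37 ± 0.21 in tolerized cells. Between cell states, 3 target genes were higher and 3 lower in TPI than in NPI (37.9% of all tested genes, median -0.15, beside -0.04), with Pdk1 at -1.62 ± 0.11, Ldha at 0.71 ± 0.08 and Hk2, the hexokinase gene, at 1.61 ± 0.17, beside 1.53 for Hif1a itself. Among 8 partners and regulators, 3 were higher and 2 lower in TAg than in NAg (39.4% of all tested genes, median 0.20, beside 0.01). Of these, the prolyl hydroxylase gene Egln3, whose enzyme marks HIF-1α for destruction, was higher in T0 than in N0 (0.69 ± 0.16) and in TAg than in NAg (1.5 ± 0.12), and Arnt, the partner subunit, changed by -1.25 ± 0.07 in NAg against N0.

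Relatives of the 9 genes were tested where they had enough counts, which was the case for 8 of 12. In T0 against N0, 2 of them were higher and 1 lower (20.4% of all tested genes passed, median -0.09, beside -0.08), and in TAg against NAg 4 were higher and 1 lower (39.4% of all tested genes, median 1.01, beside 0.01). Zbtb7b, which encodes the CD4 lineage factor ThPOK and belongs to the family of Zbtb32, changed in the opposite direction at rest (-0.63 ± 0.09). It changed by -3.68 ± 0.11 in NAg against N0 and by -1.41 ± 0.09 in TAg against T0, a difference of 2.28 ± 0.14. Tox4, a relative of Tox, rose by 1.42 ± 0.07 in NPI against N0 and by 1.91 ± 0.07 in TPI against T0, a difference of 0.49 ± 0.09 that lay beside the 0.51 of Tox. Tbx6, a T-box relative of Tbx21, changed by -7.94 ± 0.41 after Ag in naive cells and -4.48 ± 0.28 in tolerized cells, against the direction of Tbx21.

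The genes most like each member in pattern were found by Pearson's r of log2 normalized counts over the 18 libraries among 11546 candidates. These r describe groups that share stimuli and depth. Tbx21 was most like Ncs1 (0.986), Agpat4 (0.985) and Pdcd1 (0.983), which encodes the inhibitory receptor PD-1, and Zbtb32 was most like Il10 (0.977), Rgs16 (0.972) and Snx9 (0.972). Zeb2 was most like Eea1 (0.985), the costimulatory receptor gene Icos (0.985) and Nfat5 (0.981), and Tox was most like Scg2 (0.978), Npas4 (0.949) and Nfat5 (0.931). Rora was most like Samsn1 (0.983), Prkch (0.977) and Sytl3 (0.977), and Hif1a was most like Zswim6 (0.993), Nt5dc3 (0.990) and Ahi1 (0.988). Gata3 was most like Csrp1 (0.982), Mfn1 (0.969) and Polg2 (0.966), and Tox2 was most like the long non-coding RNA gene Pvt1 (0.977), Syde2 (0.970) and the pseudogene Pgam1-ps2 (0.969), whose reads may belong to its parent gene. Eomes had the weakest likeness, to Prf1, the perforin gene (0.848), Creld2 (0.804) and Plod2 (0.787). Among the 9 genes themselves, r was highest between Tbx21 and Hif1a (0.969) and between Zeb2 and Tox (0.931). Gata3 had no r above 0.28 with any of the other 8, and its strongest r was negative, at -0.55 with Tox2.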

How the data were processed

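Ribosomal RNA-depleted libraries were sequenced from 18 samples in 6 groups. The submitters' processing notes name TopHat2 2.1.1, HTSeq 0.9.1 and the mm9 build, and the deposited values are raw counts per Ensembl gene made by the authors, with no normalization or pooling. How strand and overlapping genes were counted was not stated. Total counts per library were 10758571 to 24119489.

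Counts were analyzed with R 4.3.3 and edgeR 4.0.16. A gene was tested if its normalized counts averaged 3 or more in any group. After TMM scaling, a single model held all 18 libraries and 6 group means, and 11 contrasts, of which 2 were differences between responses, were tested with the robust quasi-likelihood F test. Adjusted p-values are Benjamini-Hochberg values over all tested genes, and a gene passed at an adjusted p under 0.05. To give normalized counts, each count was divided by its library's TMM-scaled size over the geometric mean of these sizes. Exon lengths and positions came from an NCBIM37 annotation.

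The 9 genes and all lists were chosen with earlier results of these data known. From each list, members with the smallest adjusted p were named (2 list members are not reported here by name), and for each of the 9 genes the 3 most correlated genes whose highest group mean was at least 50. Alternatives were DESeq2 1.42.0, DESeq2's size factors, no filter, the study's limits of 2-fold and an average above 50, fits to the compared groups alone, a replicate block, marker scores (macrophage and erythroid, NK, Y-linked) as covariates, and each library left out. The fitting was tested on simulated data.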

Additional observations from a re-analysis of the deposited data

Results flagged for a closer look

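For 6 genes the response to Ag differed between tolerized and naive cells by the test of the difference itself (edgeR's quasi-likelihood test, Benjamini-Hochberg adjusted over all tested genes). The difference of log2 fold changes, tolerized minus naive, was -1.99 for Rora (adjusted p = 1.13e-05), -1.53 for Tox2 (adjusted p = 0.0158), -1.32 for Tbx21 (adjusted p = 0.0104), -0.69 for Hif1a (adjusted p = 0.0024), 0.74 for Tox (adjusted p = 0.00116) and 1.13 for Zeb2 (adjusted p = 0.0186). For 3 genes the response to PI differed in the same test, by 1.18 for Hif1a (adjusted p = 1.11e-05), 1.16 for Zeb2 (adjusted p = 0.0172) and 0.51 for Tox (adjusted p = 0.0195). Hif1a is the gene for which both differences passed and had opposite signs. Signs were also opposite for Rora, Tox2, Tbx21, Eomes and Zbtb32, but their PI differences did not pass in this test.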

How the results depend on the processing

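Of the 9 genes, the number that passed in T0 against N0 changed from 5 to 3 with macrophage and erythroid marker scores as covariates and to 2 under the limits of 2-fold and an average above 50, and the number in TAg against NAg changed from 7 to 4 under those limits. With 1 library left out it ranged from 4 to 6 in T0 against N0, 6 to 7 in TAg against NAg, 7 to 8 in TPI against NPI, 7 to 8 in NAg against N0, 7 to 9 in NPI against N0, 5 to 6 in TPI against TAg, 5 to 7 for the difference in Ag response and 2 to 4 for the difference in PI response. The number of all tested genes that passed in T0 against N0 was 3519, and 970 with the macrophage and erythroid scores, 1946 with the Y-linked level and 2284 without N0 replicate 2.

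Signs turned only for differences that had not passed. With marker scores or other settings, the log2 fold change of T0 against N0 was 0.0037 (NK score), 0.050 (Y-linked level) and 0.055 (only the groups compared) for Gata3, and -0.086 (macrophage and erythroid scores) and -0.025 (Y-linked level) for Tox. Eomes was at -0.38 in NAg against N0 and 0.17 in the difference in PI response with the NK score, and at -0.065 in TPI against T0 with the Y-linked level. Zeb2 was at 0.040 in NPI against NAg and 0.017 in TPI against TAg with the macrophage and erythroid scores and at 0.074 in the latter with the NK score, and Tox was at 0.0010 in TPI against TAg with the former scores. With 1 library left out, the values ranged from -0.41 to 0.55 for Eomes, -0.063 to 0.013 for Gata3 and -0.069 to 0.087 for Tox in T0 against N0, from -0.063 to 0.90 for Eomes in NAg against N0 and -0.065 to 0.31 in TPI against T0, from -0.25 to 0.010 in NPI against NAg and -0.19 to 0.015 in TPI against TAg for Zeb2, and, for the difference in PI response, from -0.22 to 0.38 for Tbx21 and -0.15 to 0.74 for Tox2. The cause was not tested.

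Calls gained or lost under other settings are given here with their adjusted p where the report does not give them. With only the groups compared, calls were lost for Zeb2 in T0 against N0 (0.0584) and the difference in PI response (0.0591), Gata3 in TAg against NAg (0.144), Tox2 in the difference in Ag response (0.051) and Zbtb32 in TPI against TAg (0.0962), and gained for Tbx21 (0.000295) and Tox2 (0.0372) in TAg against NAg and Gata3 in the difference in PI response (0.00279). With the Y-linked level, further calls were lost for Tox in NPI against N0 (0.116) and Zbtb32 in TPI against TAg (0.247). With the NK score, calls were lost for Tox in NAg against N0 (0.113) and the difference in PI response (0.0601) and gained in the difference in Ag response for Eomes (0.00112) and Zbtb32 (0.0487). With macrophage and erythroid scores, Tox in NAg against N0 was lost (0.0694), and Eomes in NPI against N0 (0.0307) and Zbtb32 in the difference in Ag response (0.0285) were gained. With no filter, Zbtb32 in TPI against TAg was lost (0.0741). DESeq2 called 8 values that edgeR had not, among them Tox2 in T0 against N0 (0.004), TAg against NAg (0.0215) and NPI against N0 (0.00753), Eomes in NPI against N0 (0.0139) and the difference in Ag response (0.0136) and Zbtb32 in that difference (0.0113), and lost 0. Same-numbered libraries did not deviate together more than others (correlations -0.195 to 0.11 over 45 pairs, beside -0.176 to 0.194 over 90 pairs of other numbers). No pairing by number was seen, but with 3 libraries per group a weak one could be missed. With the replicate block the numbers of genes that passed moved by at most 1, Zbtb32 in TPI against TAg had an adjusted p of 0.0563 and Rora in the difference in PI response one of 0.0163, and no other call of these genes changed.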
